A study of Mus musculus with 6 samples.

Results

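The wild type mouse kidney, taken 24 h after both kidneys had been without blood for 32 min, is described here through every transcript measured in it. The members are 3 of the 6 libraries of the series, namely the wild type replicates 1, 2 and 3, and all 13026 genes of the deposited table were ranked by their mean over these 3 libraries. The mice were adult males, LIGHT+/+, on a C57BL/6J background. The series also holds 3 libraries of LIGHT-/- kidneys after the same operation, and no comparison with them is made. No unoperated kidney was analysed, so a high level is a level and not an increase. The labels number the samples and do not state that each is a different mouse, so the SD measures the spread between these samples. The RNA came from whole kidney, and in such bulk tissue fewer cells of a type and less RNA per cell cannot be told apart.

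A kidney filters plasma in the glomerulus, whose filter is built by podocytes and endothelium, and then reclaims most of the filtrate along the nephron. The proximal tubule takes back glucose, phosphate, amino acids and filtered protein at great energetic cost and is packed with mitochondria, the thick ascending limb makes the urine dilute, and the distal segments and collecting duct set the final salt, acid and water balance. When blood flow stops and returns, the proximal tubule in particular loses its brush border, tubule cells switch on injury genes such as Havcr1 (kidney injury molecule KIM-1) and Lcn2 (the secreted protein NGAL), and leukocytes enter the tissue.

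Expression is given in FPKM, a count of sequenced fragments per unit of transcript length and of library size, so levels can be set side by side between genes. Values are mean ± SD over 3 libraries unless single libraries are listed, and lists of 3 values are always in the order replicate 1, 2, 3. FPKM summed to 318493, 312845 and 308876 in these libraries, and the median gene stood at 6.74 FPKM. Across genes, replicates 1 and 2 had a Pearson correlation of FPKM of 0.998, replicates 1 and 3 of 0.986 and replicates 2 and 3 of 0.988, where genes are not independent points. FPKM carry no read counts, so sequencing depth is unknown. Genes below about 0.5 FPKM in both genotypes are outside the table. A gene that was not analysed here may thus still be transcribed at a low level. The 280 genes with a wild type mean below 0.5 FPKM are in the table only through their LIGHT-/- mean. They are therefore not a full account of genes at that level.

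A small number of transcripts made up much of the measured RNA. The 10 highest genes held 14.9 ± 0.256% of the summed FPKM (SD, n = 3), the 100 highest held 32.0 ± 0.640% and the 1000 highest held 62.2 ± 0.991%. With genes taken from the top, 42 genes reached 25% of the sum, 456 reached 50% and 2114 reached 75%. A mean of at least 1 FPKM was found in 11736 genes, at least 10 FPKM in 5071, at least 100 FPKM in 446 and at least 1000 FPKM in 17. In every one of the 3 libraries the last 2 levels were reached by 398 and 15 genes.

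**Figure D1:**
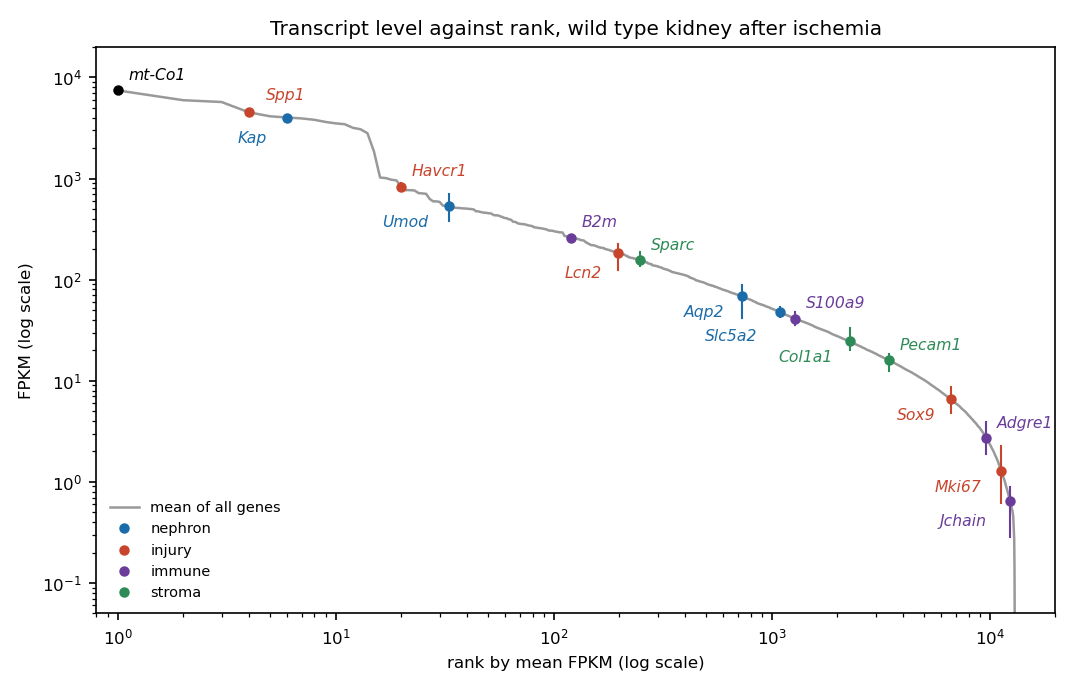
Mean FPKM of every gene (vertical axis, log scale) against its rank (horizontal axis, log scale) in the wild type kidneys, with 17 genes marked, mt-Co1 in black and the others by class colour, and a vertical line from their lowest to their highest library. Spp1 and Kap lie among mitochondrial transcripts at ranks 4 and 6, Havcr1 at rank 20, B2m at 120 and Sparc at 249, while Mki67 lies at rank 11270 and Jchain at 12381.

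Transcripts of the mitochondrial genome came first. Its 13 protein-coding genes, which encode subunits of the respiratory chain and ATP synthase, all exceeded 100 FPKM and together held 15.1 ± 0.209% of the sum. The highest gene of all was mt-Co1, a cytochrome c oxidase subunit, at 7799, 7306 and 7230 FPKM. It was followed by mt-Cytb of complex III at 5954 ± 278 FPKM and mt-Nd1 of complex I at 5713 ± 136 FPKM. The level of mt-Co1 lay above that of mt-Cytb in every library with no overlap of their ranges. The genes mt-Nd4, mt-Nd2, mt-Atp6, mt-Nd5, mt-Co2, mt-Atp8 and mt-Co3 ranged from 4129 down to 3073 FPKM, and mt-Nd4l and mt-Nd3 measured 1845 ± 12.4 and 1009 ± 44.1 FPKM. Of this group mt-Nd6 was the lowest at 371 ± 12.4 FPKM, rank 67. The 92 nuclear genes of oxidative phosphorylation held a further 2.91 ± 0.0721%, with a median of 77.4 FPKM and Cox8a, another cytochrome c oxidase subunit, as the highest at 433 ± 22.3 FPKM. The 81 cytosolic ribosomal protein genes that the symbol pattern took held 5.77 ± 0.376% and supplied 24 of the 100 highest genes, from Rplp1 at 767 ± 45.3 FPKM downward. The pattern did not take Rps3a1, which also encodes a ribosomal protein and is outside these values. Eef1a1, which carries aminoacyl-tRNA to the ribosome, reached 1023 ± 43.1 FPKM.

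Among nuclear genes, the same 4 headed the order in every library: Spp1, Kap, Fth1 and Gpx3. Spp1 (ENSMUSG00000029304.14, mm10 chr5:104435118-104441050, plus strand) encodes osteopontin, a secreted matrix glycoprotein made by injured tubules, and measured 4531, 4265 and 4764 FPKM. Kap (ENSMUSG00000032758.4, chr6:133849851-133853762, minus strand) encodes the kidney androgen-regulated protein of the mouse proximal tubule and measured 4207, 4099 and 3733 FPKM. The lowest Spp1 value was above the highest Kap value, so this order lay outside the spread. Fth1, the heavy chain of the iron store ferritin, measured 4131, 3552 and 3742 FPKM, a range that overlaps that of Kap. Gpx3, the plasma glutathione peroxidase that the proximal tubule secretes, measured 3888, 3397 and 1144 FPKM. Its mean was 2810 ± 1463 FPKM, with replicate 3 far below the others, and it came after the other three in every library.

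The next nuclear genes were close together, and 22 of the 24 neighbouring pairs among the 25 highest had overlapping ranges. After Eef1a1 came Fxyd2, the gamma subunit of the sodium pump, at 974 ± 71.9 FPKM and Ftl1, the ferritin light chain, at 958 ± 149 FPKM. Havcr1 followed at 833 ± 62.6 FPKM and was the eighth nuclear gene of the kidney. Then stood the lysosomal membrane protein gene Cd63 (768 ± 73.6 FPKM) and the selenium carrier gene Sepp1 (762 ± 137 FPKM). Klk1, tissue kallikrein, measured 712 ± 115 FPKM and S100a11, a calcium-binding protein, 629 ± 68.7 FPKM. Atp1b1, the beta subunit of the sodium pump, measured 520 ± 27.4 FPKM. Myl6, a myosin light chain, Umod and 7 further ribosomal protein genes were also among the 25 (Rpl8, Rps12, Rpl4, Rps26, Rplp0, Rps3a1 and Rpl17), down to Rpl17 at 511 ± 21.7 FPKM. Several of these genes have near-identical copies. The share of 31-base words found in transcripts of other genes was 75.1% for Rplp1, 57.7% for Ftl1, 49.8% for Eef1a1 and 40.5% for Klk1, so their levels are uncertain, while it was 14.3% for Spp1 and 0% for Kap. The same limit holds for Rps3a1 (76.9%) and S100a11 (48.9%). Among genes named further below it holds, for example, for Ccl21a (80.6%), Ifitm2 (55.5%), Pgk1 (54.7%) and Hsp90aa1 (51.4%).

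Of the 100 highest genes 60 belonged to one of the families by symbol and 23 to one of the marker lists, and 26 were in neither, Rps3a1 among them. Those 26 also included lysosomal genes such as Ctsd (cathepsin D, 504 ± 18.1 FPKM), Psap (prosaposin, 499 ± 55.6 FPKM), Ctsl (cathepsin L, 418 ± 38.0 FPKM) and Lamp1 (394 ± 21.4 FPKM). These genes were picked from the 26 after their values were seen. Protein-coding genes made up 12933 of the 13026 and held 99.8% of the summed FPKM. Genes of high FPKM tended to encode short proteins, where FPKM is itself divided by transcript length. The median coding length was 672 bases in the 100 highest nuclear genes, 835.5 in the 1000 highest and 1368 over all nuclear genes with a coding sequence. Without the ribosomal protein genes of that family the median of the 100 highest was 790.5 bases.

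To show what precedes the genes that headed the 4 classes described next, the RefSeq promoter window of each (GRCm38.p6, 250 bases before to 50 after an annotated start) is given 5′ to 3′ on the gene's own strand, with TATAAA or its reverse complement in capitals. The windows are chr6:133853618-133853917 (minus) for Kap, chr5:104434861-104435160 (plus) for Spp1, chr2:122147437-122147736 (plus) for B2m and chr11:55420031-55420330 (minus) for Sparc. For Spp1 the first of its windows is printed. A further one, at chr5:104435942-104436241 (plus), does not hold TATAAA on either strand.
Kap: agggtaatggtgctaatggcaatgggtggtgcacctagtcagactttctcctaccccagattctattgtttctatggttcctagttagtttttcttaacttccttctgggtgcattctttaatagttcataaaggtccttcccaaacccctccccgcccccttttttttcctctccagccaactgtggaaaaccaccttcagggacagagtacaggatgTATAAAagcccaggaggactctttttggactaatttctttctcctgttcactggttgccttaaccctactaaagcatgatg
Spp1: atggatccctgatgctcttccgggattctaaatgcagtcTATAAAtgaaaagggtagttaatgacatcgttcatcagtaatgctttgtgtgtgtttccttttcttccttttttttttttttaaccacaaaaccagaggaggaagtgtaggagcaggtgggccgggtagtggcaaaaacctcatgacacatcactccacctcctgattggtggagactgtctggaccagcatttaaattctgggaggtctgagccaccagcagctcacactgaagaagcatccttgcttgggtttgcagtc
B2m: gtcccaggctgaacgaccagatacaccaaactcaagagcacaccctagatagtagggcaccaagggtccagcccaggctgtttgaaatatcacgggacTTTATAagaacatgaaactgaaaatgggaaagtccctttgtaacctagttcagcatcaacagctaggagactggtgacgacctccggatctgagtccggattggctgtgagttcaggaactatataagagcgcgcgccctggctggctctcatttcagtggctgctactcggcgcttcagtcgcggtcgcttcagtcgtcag
Sparc: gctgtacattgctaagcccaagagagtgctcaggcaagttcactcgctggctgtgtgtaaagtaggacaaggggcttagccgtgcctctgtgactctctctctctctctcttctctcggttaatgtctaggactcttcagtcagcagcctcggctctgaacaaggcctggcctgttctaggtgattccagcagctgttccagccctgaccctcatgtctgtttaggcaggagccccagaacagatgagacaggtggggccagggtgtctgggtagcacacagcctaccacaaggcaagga
In Kap a TATAAA begins 31 bases before the start, the usual distance of a TATA box, and in Spp1 it begins 211 bases before the start. The B2m window holds the 6 letters on the opposite strand only, and the Sparc window does not hold them. Only exact matches are marked, so variants such as tatataag on the gene's strand of the B2m window are not. Of the 9905 genes of the table with such a window, 8.98% hold TATAAA on either strand. In 1.55% the whole of it lies on the gene's strand within the bases 40 to 20 before a start. A match of letters is a description of the sequence, and its part in the level of these genes was not tested.

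Nephron genes held 5.37 ± 0.704% of the summed FPKM, from 140 of 142 listed markers. This share was 5.71, 5.83 and 4.56% in the 3 libraries, lowest in replicate 3. Kap alone made up 23.8% of it. The summed FPKM of the class were 18199 in replicate 1 and 14072 in replicate 3. Gpx3, at 3888 and 1144 FPKM in these libraries, made up much of that difference. The median member stood at 20.8 FPKM, against 6.74 FPKM over all genes, and 28 members were among the 500 highest genes. Of the segments, the proximal tubule dominated.

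Genes of proximal tubule metabolism and secretion were the highest nephron list, with a median of 126 FPKM over 24 of 25 members and 14 members at or above 100 FPKM. Its 5 highest members included, after Kap and Gpx3, Cyp4b1, a cytochrome P450, at 494 ± 78.3 FPKM, and Pck1, the gluconeogenic enzyme phosphoenolpyruvate carboxykinase, at 366, 493 and 193 FPKM. Miox, which breaks down inositol and is made almost only in this segment, measured 108, 149 and 119 FPKM. Pck1 was lowest in replicate 3 by a wide margin, and 21 of the 24 members had their lowest value there, against 28.8% of all genes.

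Transporters of the early proximal tubule had a median of 32.6 FPKM (18 of 18 members). Slc34a1, the phosphate carrier of the brush border, led at 331, 334 and 290 FPKM, ahead of the organic anion carrier Slc22a6 (135 ± 24.0 FPKM), the cystine carrier subunit Slc3a1 (120 ± 14.4 FPKM), the bicarbonate exporter Slc4a4 (83.2 ± 8.30 FPKM) and the sulfate carrier Slc13a1 (77.6 ± 18.6 FPKM). The 3 libraries of Slc34a1 lay above all libraries of Slc22a6. Slc5a2, the glucose carrier SGLT2, measured 47.7 ± 5.72 FPKM, Slc6a19, a neutral amino acid carrier, 33.5 ± 6.89 FPKM, and Slc5a12, a lactate carrier, 19.4 ± 1.45 FPKM. The second phosphate carrier, Slc34a3, was the lowest member at 1.56 ± 0.349 FPKM and was picked for that after its value was seen.

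The straight segment of the proximal tubule had a lower median of 15.3 FPKM (11 of 11 members), but a very uneven list. Slc27a2, a fatty acid transporter and acyl-CoA synthetase, reached 354 ± 17.1 FPKM and made up 50.3% of the list's sum, and Slc6a18, an amino acid carrier, reached 219 ± 31.9 FPKM. Atp11a, a lipid flippase, measured 42.2 ± 1.33 FPKM and Acsm3, a medium-chain acyl-CoA synthetase, 24.9 ± 6.99 FPKM. Slc7a13, an amino acid carrier of the last part of the tubule, measured 24.3, 17.4 and 33.2 FPKM, while Cyp7b1, a sterol hydroxylase, and Slc22a7, an organic anion carrier, stood at 3.62 ± 0.598 and 3.73 ± 0.246 FPKM. Both of these lay below the median of all genes in every library.

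The brush border and endocytic list had a median of 41.3 FPKM (16 of 16 members). Lgmn, a lysosomal protease, was the highest at 550, 452 and 390 FPKM, followed by Ggt1, which splits glutathione at the cell surface (133 ± 20.7 FPKM), the scaffold genes Slc9a3r1 (124 ± 11.3 FPKM) and Pdzk1 (122 ± 14.96 FPKM) and Vil1, villin of the microvilli (79.7 ± 7.503 FPKM). Lrp2 and Cubn, the megalin and cubilin receptors that take up filtered protein, measured 57.3, 68.8 and 54.3 FPKM and 21.6, 22.9 and 19.0 FPKM. Megalin was thus above cubilin in all 3 libraries, without overlap.

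The loop of Henle was represented mainly by Umod, which encodes uromodulin, the protein shed into urine by the thick ascending limb. Umod measured 383, 522 and 696 FPKM, so the highest library held much more than the lowest, and it made up 66.8% of the list's sum. The other members of the thick ascending limb list (15 of 16 analysed, median 23.5 FPKM) stood far below it. The phosphatase inhibitor gene Ppp1r1a measured 35.5 ± 10.9 FPKM and the claudin gene Cldn10 35.3 ± 2.94 FPKM. Slc12a1, the salt carrier NKCC2 blocked by loop diuretics, measured 12.7, 48.9 and 42.5 FPKM. It was low in replicate 1, where 12 of the 15 members had their lowest value, against 38.1% of all genes. The 4 thin limb genes were low, and Slc14a2, the urea transporter of the inner medulla, measured 3.05, 8.24 and 25.3 FPKM. Of the others, Epha7 and Sptssb were below 0.5 FPKM in each library.

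The distal convoluted and connecting tubule list (11 of 11 members, median 15.4 FPKM) was headed by Fxyd2 and Klk1, which other segments also express in part. S100g, the calcium-binding protein calbindin-D9k, followed at 289, 346 and 212 FPKM. Slc12a3, the thiazide-sensitive salt carrier that defines the segment, measured 137, 123 and 101 FPKM and so stood above Slc12a1 of the preceding segment in every library. Wnk4, a kinase that controls that carrier, measured 21.6 ± 2.09 FPKM, and Calb1, calbindin-D28k, measured 12.8, 22.5 and 10.8 FPKM. Pvalb, parvalbumin, a marker of the early distal convoluted tubule, was almost absent at 0.392, 0 and 0.452 FPKM.

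In the collecting duct the water channel Aqp2 of principal cells measured 41.8, 89.5 and 73.3 FPKM, followed by Hsd11b2, which shields the mineralocorticoid receptor from cortisol-like hormones, at 36.7 ± 4.70 FPKM, and by Aqp3 at 23.5 ± 6.36 FPKM. The sodium channel subunits Scnn1a, Scnn1b and Scnn1g stood at 15.2 ± 3.02, 13.0 ± 1.65 and 9.20 ± 1.38 FPKM, with overlapping ranges between the first and the next. The principal cell list had a median of 10.1 FPKM (13 of 13 members), and 11.8 FPKM without replicate 1. In replicate 1, 8 of the 13 members were lowest, against 38.1% of all genes. Intercalated cells, which secrete acid or base, had a median of 7.496 FPKM (15 of 15 members), close to that of all genes. Their highest members were the proton pump subunits Atp6v0a4 (44.5 ± 5.71 FPKM), Atp6v1g3 (21.4 ± 2.36 FPKM) and Atp6v0d2 (11.2 ± 2.28 FPKM) and the ammonia channel Rhcg (13.2 ± 1.498 FPKM). Slc26a4, the pendrin exchanger of base-secreting cells, measured 9.38 ± 1.86 FPKM, and Foxi1, the transcription factor that specifies these cells, measured 6.98 ± 0.747 FPKM.

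Podocyte genes were among the lowest of the nephron, with a median of 4.70 FPKM (13 of 13 members). Podxl, the charged surface protein podocalyxin, which endothelium also carries, was the highest at 66.9 ± 4.68 FPKM. Nphs1, nephrin of the slit diaphragm, measured 3.03, 2.98 and 2.34 FPKM, below the median of all genes in every library. Nes (an intermediate filament), Cdkn1c (a cell cycle inhibitor) and Tcf21 (a transcription factor) measured 14.0 ± 2.76, 13.1 ± 0.805 and 10.5 ± 4.00 FPKM.

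**Figure D2:**
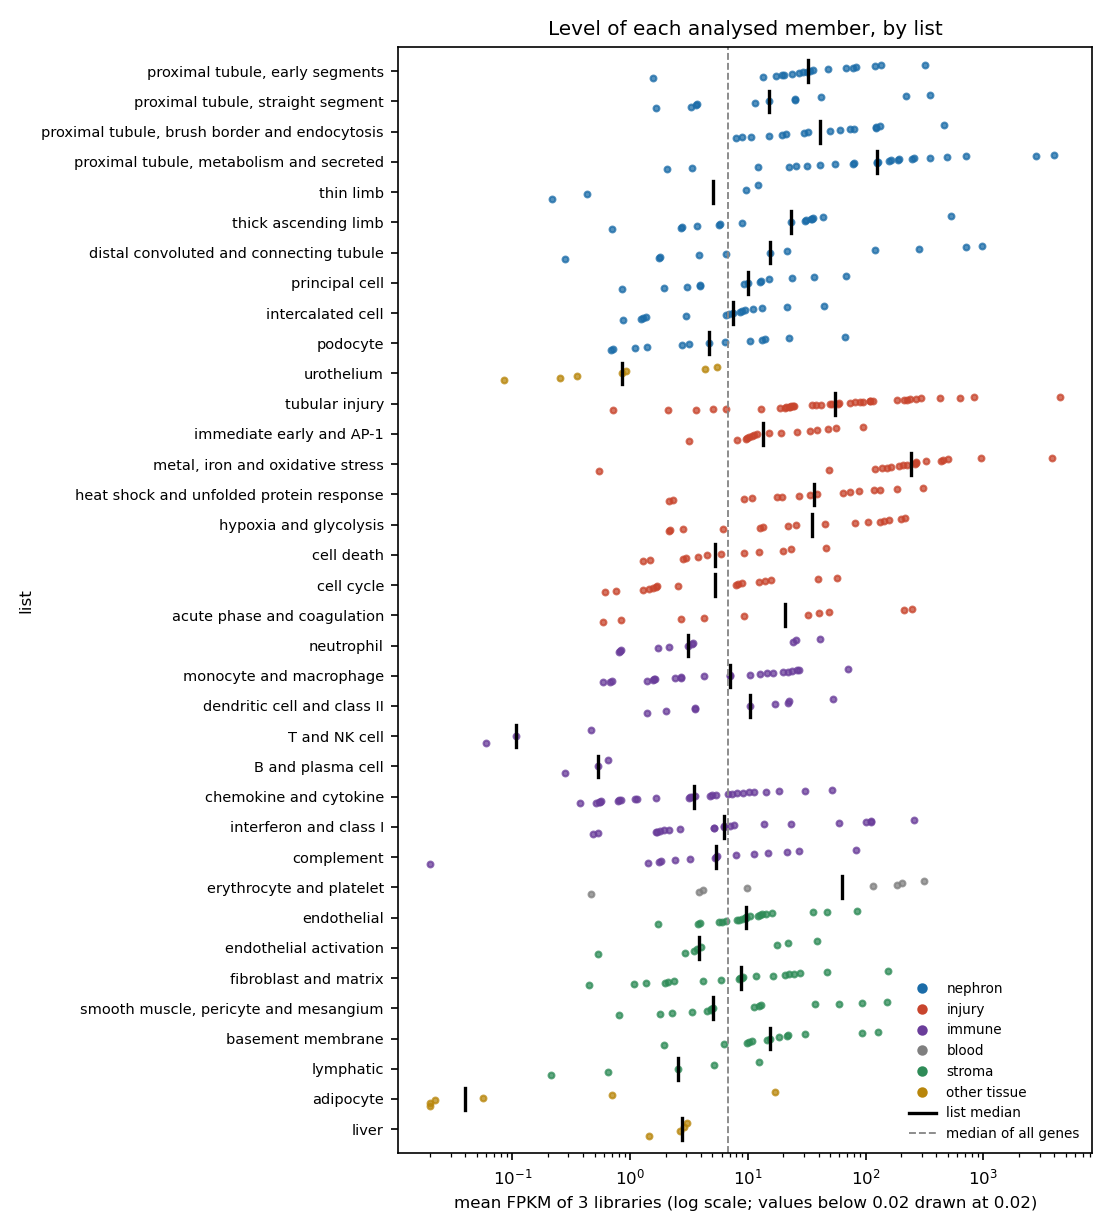
Mean FPKM over the 3 wild type libraries (horizontal axis, log scale) of each analysed member, as points, for the 36 lists with at least 3 analysed members, coloured by class, with the list median as a black bar and the median of all genes (6.74 FPKM) as a dashed line. The metal, iron and oxidative stress list has the highest median (244 FPKM), and the T and NK cell and adipocyte lists have the lowest. All analysed T and NK cell genes and most analysed adipocyte genes lie below 0.5 FPKM. They are in the table only through their LIGHT-/- mean, so these low medians depend on that filter.

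Injury and stress genes held a share of the same order as nephron genes, 6.76 ± 0.322% of the summed FPKM from 142 of 148 listed genes. It was 6.84, 6.41 and 7.04% in the 3 libraries, above the nephron share of the same library in each. Spp1 supplied 21.3% of it. The median member stood at 29.8 FPKM, 43 members were among the 500 highest genes, and 11 were among the 100 highest. Both the lists and the gap between the shares depend on which genes were listed, so the 2 shares are descriptions and not a test.

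The tubular injury list had a median of 55.3 FPKM (38 of 40 members), and 33 members reached 10 FPKM. Havcr1 (ENSMUSG00000040405.13, chr11:46735080-46779578, plus strand), a receptor by which injured proximal tubule cells engulf dead neighbours, measured 895, 770 and 833 FPKM. Lcn2 (chr2:32384633-32388252, minus strand) measured 124, 225 and 201 FPKM. In each library Havcr1 was far above Lcn2, and the ranges did not approach each other. Clu, the chaperone clusterin, measured 479, 346 and 472 FPKM, and Plau, the urokinase protease, 283, 249 and 362 FPKM. Krt20, a keratin otherwise typical of gut and urothelium, measured 86.9, 105 and 77.9 FPKM, while Krt8 and Krt18, the keratin pair of simple epithelia, measured 226 ± 21.4 and 59.2 ± 15.1 FPKM. Sox9, a transcription factor of regenerating tubules, was low at 8.59, 4.75 and 6.28 FPKM, near the median of all genes.

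Genes of tubule injury that also belong to wound repair lay between these. S100a10 and Anxa2, partners in 1 complex at the cell membrane, measured 267 ± 17.6 and 117 ± 24.9 FPKM, and Tnfrsf12a, the receptor of the cytokine TWEAK, 236 ± 13.8 FPKM. Cryab, a small heat shock protein, measured 242, 157 and 235 FPKM. These 4, and Krt8 and Krt18, were picked after their values were seen, as were Timp1, an inhibitor of matrix proteases (64.0, 34.7 and 76.2 FPKM), and Vim, vimentin (24.7, 32.1 and 49.1 FPKM). At the bottom of the list were Mmp7 and Il24 at 2.09 ± 1.05 and 0.715 ± 0.355 FPKM, and Areg and Ereg were not analysed here.

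Genes of defence against iron and oxidants had the highest median of all lists, 244 FPKM over 18 of 18 members and 16 of them at or above 100 FPKM. The ferritin genes Fth1 and Ftl1 summed to 5256, 4464 and 4579 FPKM, which was 1.52 ± 0.116% of all FPKM. The metallothioneins Mt1 and Mt2, small proteins that bind zinc and copper, summed to 791, 927 and 1161 FPKM, highest in replicate 3. Sod1, the cytosolic superoxide dismutase, measured 435 ± 37.2 FPKM. Hmox1, the heme oxygenase that frees iron from heme, measured 170, 154 and 134 FPKM. Slc7a11, the cystine importer, was the exception in this list at 0.541 ± 0.129 FPKM and was named after its value was seen.

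Heat shock and unfolded protein genes had a median of 36.2 FPKM (16 of 16 members). The constitutive chaperone Hspa8 measured 306 ± 35.0 FPKM, Hsp90aa1 185 ± 17.9 FPKM, Hsp90b1 of the endoplasmic reticulum 133 ± 7.42 FPKM and the stress transcription factor Atf4 87.7 ± 11.6 FPKM. Hspa5, the endoplasmic reticulum chaperone BiP, measured 141, 64.4 and 146 FPKM, with replicate 2 well below the others. The inducible Hspa1a and Hspa1b measured 16.7, 16.7 and 24.97 FPKM and 27.7, 28.7 and 44.9 FPKM. Transcripts of other genes hold 65.4 and 68.0% of the 31-base words of these copies, so their division is uncertain. Ddit3, the stress factor CHOP, measured 9.37 ± 1.16 FPKM.

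Immediate early genes, which are switched on within minutes of a stimulus, had a median of 13.5 FPKM (16 of 17 members). Jund, a constitutive AP-1 subunit, led at 94.9 ± 12.4 FPKM, followed by the regulators Klf6 (55.6 ± 10.5 FPKM), Ier3 (47.5 ± 6.12 FPKM), Jun (38.7 ± 5.88 FPKM) and Junb (33.6 ± 6.90 FPKM). Atf3 and Fos, the other defining members, were much lower at 8.03 ± 1.54 and 3.17 ± 0.533 FPKM. Fos lay below Jun in every library. In 14 of the 16 members replicate 3 was the highest library, against 45.7% of all genes.

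Glycolytic and hypoxia genes had a median of 35.4 FPKM (16 of 16 members). Ndrg1, a stress-response gene induced by low oxygen, measured 296, 199 and 159 FPKM, and the glycolytic enzyme genes Pgk1, Aldoa, Pkm and Ldha measured 198 ± 1.62, 159 ± 5.31, 144 ± 28.9 and 132 ± 11.9 FPKM. The defining hypoxia targets were lower. Vegfa, the endothelial growth factor, measured 21.9 ± 1.67 FPKM, while the hexokinase Hk2 and the carbonic anhydrase Car9 measured 2.17 ± 0.682 and 2.15 ± 0.281 FPKM.

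Cell death genes had a median of 5.22 FPKM (12 of 12 members), below that of all genes. Acsl4, a lipid enzyme that sensitises cells to ferroptosis, led at 46.3 ± 1.76 FPKM, ahead of Bax (23.4 ± 1.93 FPKM), Casp8 (19.9 ± 1.70 FPKM) and Pmaip1 (12.4 ± 1.08 FPKM), all of the apoptosis pathway. The necroptosis genes Mlkl and Ripk3 measured 4.52 ± 0.165 and 2.81 ± 0.871 FPKM, and Bbc3, which encodes the apoptosis activator PUMA, 1.47 ± 0.451 FPKM.

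Cell cycle genes were also low, with a median of 5.25 FPKM (16 of 16 members). Ccnd1, cyclin D1 of the G1 phase, and Pcna, the replication clamp, were the highest at 57.6 ± 11.4 and 39.3 ± 7.49 FPKM, followed by the replication licensing genes Mcm6, Mcm4 and Mcm5 at 15.8 ± 4.98, 14.0 ± 4.15 and 12.4 ± 4.29 FPKM. Genes of dividing cells were near the floor of the table. Mki67, the proliferation antigen Ki-67, measured 0.620, 0.987 and 2.25 FPKM, and Top2a, the topoisomerase of mitotic chromosomes, 0.878, 1.44 and 2.71 FPKM. All 16 members had their highest value in replicate 3, against 45.7% of all genes.

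Acute phase genes were carried by fibrinogen, the clotting protein best known from liver. Its chains Fgg, Fga and Fgb measured 246 ± 49.6, 214 ± 55.4 and 49.2 ± 16.9 FPKM, and summed to 622, 522 and 381 FPKM, lowest in replicate 3. Lrg1, a secreted glycoprotein, measured 40.0 ± 12.1 FPKM and F3, tissue factor, 32.3 ± 2.87 FPKM. The liver markers Alb (albumin) and Apoa2 (an apolipoprotein) stood at 1.56, 1.69 and 1.11 FPKM and 2.63, 3.37 and 2.53 FPKM in the same libraries. High fibrinogen levels stood beside low levels of albumin in every library, and the source of the fibrinogen transcripts was not tested. The list held 10 of 13 members, with a median of 20.8 FPKM that was 21.7 FPKM without replicate 1 and 19.7 FPKM without replicate 3.

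**Figure D3:**
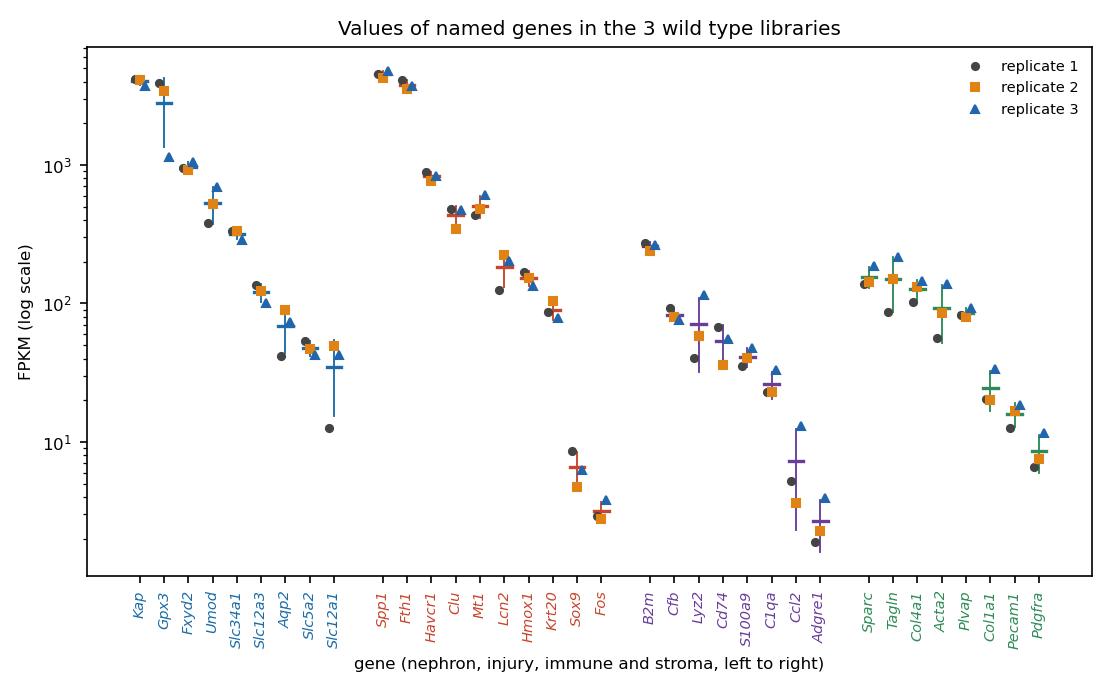
FPKM (vertical axis, log scale) of 35 named genes in the 3 wild type libraries, as 1 symbol per library, with the mean as a bar and 1 SD as a line, in the order nephron, injury, immune, stroma. Kap, Spp1 and Fth1 lie close together in all libraries, Gpx3 and Slc12a1 each have 1 low library, and Lyz2, Tagln and Acta2 are highest in replicate 3.

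Immune genes held 0.527 ± 0.0719% of the summed FPKM, from 113 of 174 listed genes, and none was among the 100 highest genes. The share was 0.509, 0.465 and 0.606% in the 3 libraries. The analysed members had a median of 3.58 FPKM, below the 6.74 FPKM of all genes, and the remaining listed members were not analysed here. B2m alone, the light chain shared by all class I molecules and made by nearly every cell, supplied 15.7% of the share.

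Antigen presentation and interferon genes had the highest sum of the class, at 726, 652 and 808 FPKM. B2m (chr2:122147686-122153083, plus strand) measured 275, 238 and 264 FPKM. Ifitm3 and Ifitm2, membrane proteins that block virus entry, measured 111 ± 30.7 and 110 ± 17.7 FPKM, and the class I heavy chains H2-D1 and H2-K1 measured 101 ± 2.98 and 60.0 ± 3.78 FPKM. Genes that depend more closely on interferon were low, with Isg15 at 6.24 ± 1.37 FPKM and Irf7 at 1.65 ± 0.132 FPKM. The list median was 6.24 FPKM (21 of 22 members).

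Macrophage genes had the highest sum of the leukocyte lists, over 23 analysed members. By median the class II list, with 9 analysed members, was higher, at 10.4 FPKM. Lyz2, the lysozyme of myeloid cells, measured 40.2, 58.0 and 115 FPKM and was highest in replicate 3. So were 19 of the 23 analysed members of the list, against 45.7% of all genes. Tyrobp, a signalling adaptor of myeloid receptors, measured 20.8, 22.0 and 39.3 FPKM. The complement chains C1qa and C1qb, made by tissue macrophages, measured 26.3 ± 5.77 and 23.7 ± 4.85 FPKM, and Cd14, the co-receptor for endotoxin, 21.9 ± 2.19 FPKM. The markers Csf1r (the receptor for macrophage growth factor) and Adgre1 (the F4/80 antigen) were lower at 6.997 ± 1.16 and 2.70 ± 1.09 FPKM. The list had a median of 6.997 FPKM (23 of 26 members), and 4.78 FPKM without replicate 3.

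Of 19 neutrophil genes 11 were analysed, with a median of 3.10 FPKM. S100a9 and S100a8, the calprotectin subunits that fill the neutrophil cytosol, measured 35.3, 40.2 and 47.7 FPKM and 20.01, 25.8 and 31.5 FPKM. S100a9 exceeded S100a8 in every library, and their ranges did not overlap. G0s2, a lipolysis inhibitor that epithelium can also express, measured 24.2 ± 8.42 FPKM. The more specific Retnlg, a resistin-like protein, measured 2.12, 2.92 and 5.27 FPKM, and Clec4d, a lectin receptor, 3.38 ± 1.201 FPKM. Replicate 3 was the highest library in 10 of the 11 genes, against 45.7% of all genes.

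Class II genes, which present antigen to helper T cells, went another way between the libraries. Cd74, the chaperone of class II molecules, measured 68.1, 35.8 and 55.8 FPKM, highest in replicate 1. The class II chain genes H2-Eb1, H2-Ab1 and H2-Aa measured 22.2 ± 7.32, 21.8 ± 7.26 and 17.1 ± 4.63 FPKM, and H2-DMb1, which loads peptide, 10.4 ± 0.982 FPKM. Of the 9 analysed members of this list, out of 16, 8 were highest in replicate 1 and 7 were lowest in replicate 2. Over all genes these shares were 28.6 and 33.1%. Flt3, the growth factor receptor of dendritic cells, was not analysed here.

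Lymphocyte markers were at the floor. Of 21 T and NK cell genes 3 were analysed, and none reached 1 FPKM. All 3 had a wild type mean below 0.5 FPKM and are in the table only through their LIGHT-/- mean. The same holds for Cd79b below. Lck, a kinase of the T cell receptor, measured 0.470 ± 0.0223 FPKM, Nkg7, a granule protein, 0.111, 0 and 0.213 FPKM, and Cd3g 0.0596 ± 0.0519 FPKM. Cd3e and Trac were not analysed here. Of 11 B and plasma cell genes 3 were analysed, with Jchain, the joining chain of secreted antibodies, at 0.884, 0.284 and 0.784 FPKM, Mzb1 at 0.531 ± 0.425 FPKM and Cd79b at 0.282 ± 0.148 FPKM. Cd79a, Ms4a1 and all 8 genes of mast cells, basophils and eosinophils, Cpa3 and Mcpt8 among them, were not analysed here.

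Chemokine and cytokine genes (28 of 36 analysed) had a median of 3.46 FPKM. Macrophage growth factors and membrane-bound chemokines led the list. Cx3cl1, the membrane-bound chemokine fractalkine, measured 51.9 ± 8.41 FPKM, Il34, a growth factor for macrophages, 30.3 ± 3.99 FPKM, and Cxcl16, a scavenger receptor and chemokine, 18.6 ± 1.17 FPKM. Csf1, the other macrophage growth factor, and Il33, an alarmin, followed at 14.3 ± 5.14 and 11.3 ± 2.54 FPKM. The neutrophil attractant Cxcl1 measured 10.4, 6.43 and 13.7 FPKM, the monocyte attractant Ccl2 measured 5.25, 3.65 and 13.0 FPKM, and Il6 measured 0.392, 0.662 and 1.46 FPKM. Each of these 3 was highest in replicate 3, as were 18 of the 28, against 45.7% of all genes.

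Complement genes (15 of 15 members, median 5.35 FPKM) were led by Cfb, factor B of the alternative pathway, at 92.4, 79.2 and 76.4 FPKM. It overlaps Gm20547 on the same strand and 75.5% of its 31-base words recur in other genes, so its level is uncertain. C3, the central component, measured 37.4, 21.9 and 21.6 FPKM. The regulators Serping1 (the C1 inhibitor) and Cd59a (which blocks the membrane pore) measured 14.9 ± 1.78 and 11.4 ± 7.25 FPKM. Cfd, factor D, which activates factor B and is made chiefly by fat, was listed at 0 in all 3 libraries.

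Stromal genes held 0.514 ± 0.0963% of the summed FPKM, from 82 of 86 listed genes. The share was 0.426, 0.499 and 0.617%, and 65 of the 82 members had their highest value in replicate 3, against 45.7% of all genes. The median member stood at 9.56 FPKM. The difference between the stromal and the immune share was smaller than the spread between the libraries.

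Matrix and fibroblast genes had a median of 8.74 FPKM (20 of 22 members). Sparc (ENSMUSG00000018593, chr11:55394500-55423183, minus strand), a collagen-binding protein that endothelium and podocytes also make, led at 137, 142 and 186 FPKM. Mgp, which prevents calcification, measured 47.1 ± 9.71 FPKM. The fibrillar collagen genes Col3a1 and Col1a1 measured 24.9, 20.1 and 38.6 FPKM and 20.3, 19.9 and 33.6 FPKM, so these overlapped each other. Pdgfrb, the growth factor receptor of pericytes and fibroblasts, measured 22.4 ± 3.11 FPKM, and the fibroblast markers Pdgfra and Dcn (decorin) measured 8.53 ± 2.60 and 8.37 ± 1.79 FPKM.

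Smooth muscle and pericyte genes had a median of 5.08 FPKM (15 of 15 members) and a wide range. Tagln, the actin-binding protein transgelin, measured 86.6, 150 and 215 FPKM, and Acta2, smooth muscle actin, 55.9, 85.6 and 138 FPKM, both lowest in replicate 1 and highest in replicate 3. Ren1, renin of the juxtaglomerular cells, measured 62.6, 77.1 and 37.4 FPKM and was lowest in replicate 3. Myl9, a smooth muscle myosin light chain, measured 15.3, 54.9 and 41.0 FPKM. Rgs5, a pericyte regulator of G protein signals, measured 12.9 ± 2.85 FPKM and Myh11, the smooth muscle myosin heavy chain, 5.08 ± 0.623 FPKM.

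Endothelial genes had a median of 9.61 FPKM (21 of 22 members). Plvap, the diaphragm protein of fenestrated capillaries, measured 85.0 ± 7.12 FPKM, Igfbp3, which binds insulin-like growth factors, 46.8 ± 13.1 FPKM, and Eng, endoglin, 35.5 ± 1.43 FPKM. The junction genes Pecam1 and Cdh5 and the capillary marker Emcn measured 15.9 ± 3.06, 13.3 ± 2.63 and 14.4 ± 3.55 FPKM, with overlapping ranges. Of the activation genes, Thbd (the anticoagulant receptor thrombomodulin) measured 38.6 ± 9.66 FPKM, Icam1 (a leukocyte adhesion molecule) 22.0 ± 3.98 FPKM, Esm1 (endocan) 17.8 ± 1.57 FPKM, Icam2 3.98 ± 0.0862 FPKM and Procr (the protein C receptor) 3.73 ± 0.961 FPKM. Sele, E-selectin, was low at 0.538 ± 0.120 FPKM. The activation list had a median of 3.86 FPKM (8 of 9 members).

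Basement membrane genes formed the highest stromal list, with a median of 15.3 FPKM (13 of 13 members). The type IV collagen chains Col4a1 and Col4a2 measured 103, 132 and 145 FPKM and 92.6 ± 16.0 FPKM, far above the glomerular chains Col4a3 and Col4a4 at 21.5 ± 2.46 and 18.6 ± 0.576 FPKM. Nid1, the linker nidogen, measured 30.7 ± 5.47 FPKM and Lamb1, a laminin chain, 21.9 ± 1.54 FPKM. Lymphatic genes were low (5 of 5 members, median 2.56 FPKM). Pdpn, which podocytes also make, measured 12.4 ± 2.92 FPKM, the chemokine Ccl21a 5.21 ± 2.70 FPKM and the growth factor receptor Flt4 2.56 ± 0.175 FPKM, while Prox1 and Lyve1, which define lymphatic vessels, measured 0.646 ± 0.394 and 0.212 ± 0.147 FPKM.

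Globin genes of red blood cells were abundant, and whether blood left in the vessels was their source was not tested. Hbb-bs, Hba-a1, Hba-a2 and Hbb-bt measured 313 ± 9.57, 205 ± 10.8, 185 ± 15.3 and 116 ± 5.52 FPKM, and summed to 846, 776 and 838 FPKM. These genes are near-identical in pairs, so single values are uncertain while the sum is less so. Pf4, a platelet chemokine, measured 5.96, 7.46 and 16.0 FPKM. Markers of neighbouring tissues were scarce. Of 35 such genes 20 were analysed, with a median of 0.773 FPKM, and 1 reached 10 FPKM, namely Fabp4, a fatty acid carrier shared by fat and capillaries, at 17.2 ± 4.08 FPKM. The fat markers Adipoq and Plin1 measured 0 in all libraries and 0.0220 ± 0.0380 FPKM. Both are in the table only through their LIGHT-/- mean. Cyp11a1 and Cyp11b1 of the adrenal, Acta1 and Ckm of muscle and Sox10 of Schwann cells were not analysed here. Urothelial genes of the renal pelvis (7 of 7 members) had a median of 0.848 FPKM and differed between libraries. Krt5, a basal keratin, measured 1.31, 8.35 and 6.90 FPKM and Psca, a surface antigen, 0.457, 7.25 and 5.31 FPKM, both lowest in replicate 1, while the uroplakins Upk3b, Upk1b, Upk1a and Upk3a measured 0.931 ± 0.782, 0.848 ± 0.690, 0.356 ± 0.0924 and 0.0855 ± 0.0823 FPKM.

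**Figure D4:**
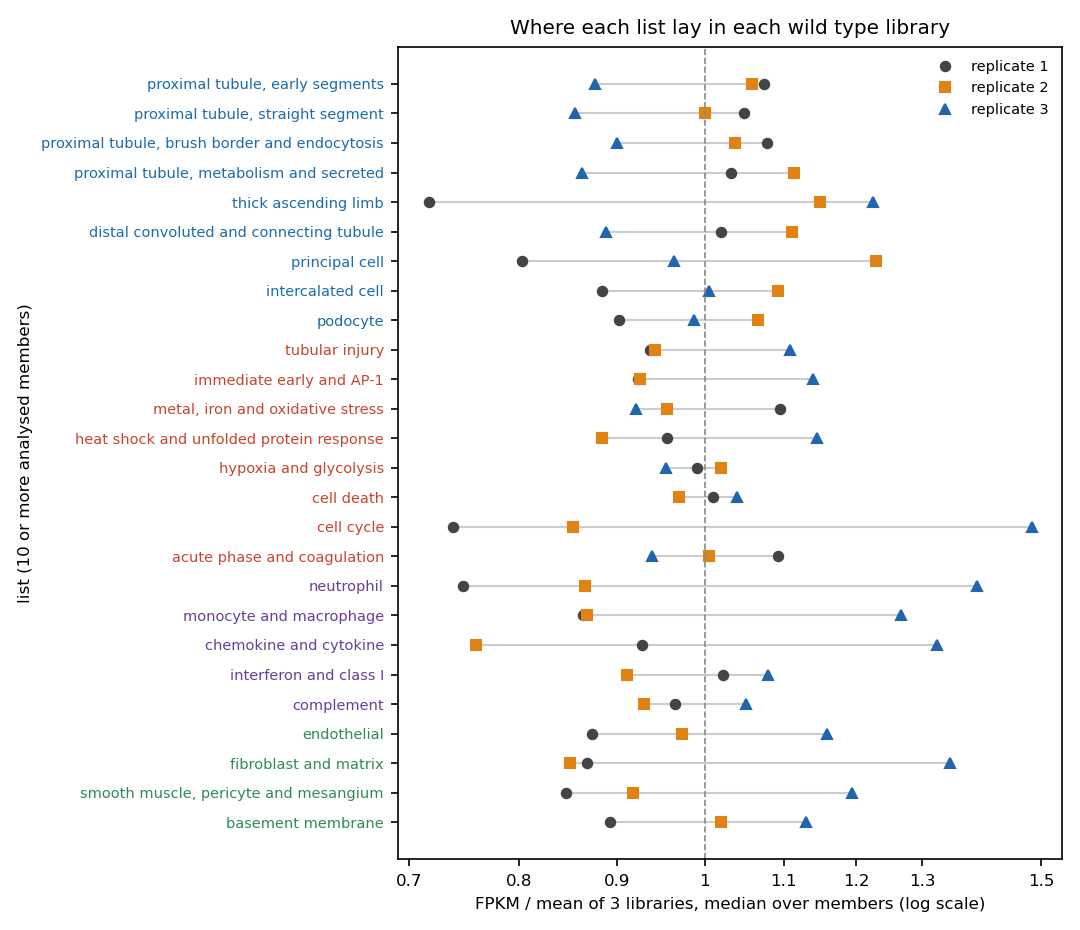
For each list with 10 or more analysed members, the median over members of FPKM divided by the member's mean over the 3 libraries (horizontal axis, log scale), with 1 symbol per wild type library and the value 1 dashed. Replicate 3 lies lowest in the 4 proximal tubule lists and highest in the cell cycle (1.48), neutrophil (1.388), fibroblast (1.34) and macrophage (1.27) lists, and replicate 1 lies lowest in the thick ascending limb (0.72) and principal cell (0.80) lists.

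The 3 kidneys did not have the same composition of transcripts. Over all genes, 28.6% had their highest value in replicate 1, 25.7% in replicate 2 and 45.7% in replicate 3. In the nephron class the counts were 41, 74 and 25 of 140, in the injury class 37, 19 and 86 of 142, in the immune class 36, 9 and 68 of 113 and in the stroma class 6, 11 and 65 of 82. Replicate 3 held the lowest value of 79 of the 140 nephron genes, against 28.8% of all genes. Replicate 1 held the lowest of 51 of the 82 stromal genes, against 38.1% of all genes. The labels give no batch, date or animal that separates these libraries, and what moved these groups of genes was not tested.

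The spread between libraries shrank with level. The median coefficient of variation (CV, SD divided by mean) was 28.8% in genes below 1 FPKM, 12.6% from 1 to 10 FPKM, 8.08% from 10 to 100 FPKM, 7.44% from 100 to 1000 FPKM and 4.37% at or above 1000 FPKM. Over all genes it was 11.2%. Of the 5071 genes at or above 10 FPKM, 1356 (26.7%) had a CV below 5% and 45 had a CV above 50%. By class, the median CV was 17.7% in nephron, 18.5% in injury, 31.5% in immune and 20.4% in stromal genes.

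Genes of largest spread at 10 FPKM or more were led by Ugt1a5, Ugt1a1 and Ugt1a6b, glucuronosyltransferases that make drugs and bilirubin soluble. Ugt1a5 measured 4.604, 49.6 and 5.46 FPKM, Ugt1a1 7.16, 61.7 and 6.74 FPKM and Ugt1a6b 5.17, 38.3 and 4.12 FPKM. All 3 were high in replicate 2 alone. These genes overlap on chromosome 1, and 65.3, 58.5 and 84.2% of their 31-base words recur elsewhere in the transcriptome. The sum of the 8 Ugt1a genes of the table was 137, 240 and 104 FPKM, with a CV of 44.4% against 125% for Ugt1a1. Hist2h2aa1, a replication-dependent histone, measured 35.4, 0 and 11.8 FPKM, with 89.7% of its words found in other genes.

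Others of large spread differed by library. Slc14a2 is given above. Vgf, a secreted neuropeptide precursor, measured 6.98, 5.19 and 20.1 FPKM, and Gpx1, the cytosolic glutathione peroxidase, measured 131, 136 and 354 FPKM, both highest in replicate 3. Gpx1 was thus high in the library where Gpx3 was low. Ube2v1, a ubiquitin conjugation factor, measured 12.3, 10.01 and 33.8 FPKM, and Sirpa, an inhibitory receptor of myeloid cells, 7.12, 6.60 and 18.2 FPKM. Ube2v1 overlaps Gm20431 on the same strand and 59.9% of its words recur in other genes, so its level is uncertain. Tmigd1, an adhesion protein of the brush border, measured 88.7, 29.3 and 29.9 FPKM, Mapk14, the stress kinase p38, 27.3, 9.36 and 8.90 FPKM, and Krcc1 45.9, 15.6 and 13.9 FPKM, all high in replicate 1. Gemin7, a splicing assembly factor, and Bola1, a mitochondrial protein, were low in replicate 1 at 3.501 and 4.17 FPKM, against 16.3 and 17.9 FPKM in replicate 2. Cd59a, already named with complement, was high in replicate 2 at 19.8 FPKM. Of these 15 genes 6 (40%) overlap another gene of the table, against 18.0% of all genes at or above 10 FPKM. Ugt1a5, Ugt1a1 and Ugt1a6b are among the 6 and overlap one another, so 1 locus is counted more than once.

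The 10 genes of smallest CV at 10 FPKM or more had various functions. Arf1, a GTPase of vesicle budding, measured 239, 239 and 240 FPKM, and Slc25a3, the mitochondrial phosphate carrier, 85.0, 85.0 and 84.6 FPKM. Abhd16a, a lipase, had the smallest CV of 0.119% at 18.3 FPKM. The others were Plxnb2, a semaphorin receptor (54.4 ± 0.177 FPKM), Mphosph6, an RNA exosome partner (17.5 ± 0.0580 FPKM), Manba, a lysosomal mannosidase (16.3 ± 0.0470 FPKM), Sec23b of the COPII coat (14.5 ± 0.0481 FPKM), Ppid, a cyclophilin (11.2 ± 0.0297 FPKM), Clcc1, a chloride channel of the endoplasmic reticulum (10.8 ± 0.0233 FPKM), and Qars, the glutamine tRNA synthetase (10.3 ± 0.0290 FPKM).

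**Figure D5:**
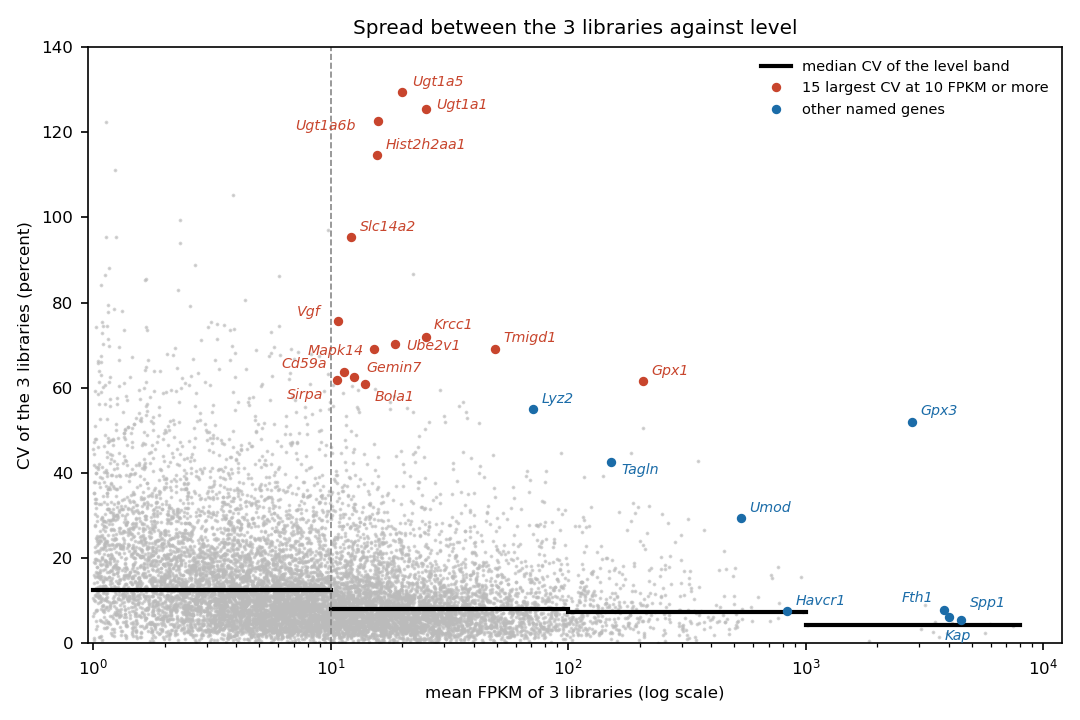
CV of the 3 wild type libraries in percent (vertical axis) against mean FPKM (horizontal axis, log scale) for genes at or above 1 FPKM, with the 15 genes of largest CV at 10 FPKM or more in red, 8 other named genes in blue and black bars for the median CV of each level band. The bars fall from 12.6% to 4.37%, while Gpx3 (52.1%), Gpx1 (61.5%) and Lyz2 stand far above the genes of similar level.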

How the data were processed

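Total RNA of whole kidney was made into stranded libraries, per the labels' protocols. The authors deposited gene levels in FPKM. Per the submitters' processing notes, FastQC, HISAT2 and StringTie were used with mm10 (no versions), and the sources used here do not give the annotation or say whether strand was used. The files of single samples held the same values as the table. FPKM give no counts, so no interval for counting error was computed.

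Groups were taken from the sample titles. Genes were ranked by mean FPKM over the 3 wild type libraries, with SD and CV (n = 3), in python 3.11.15 with pandas 2.3.3 and numpy 2.4.6, and no test was made. The functions for shares and CV were tested on simulated data. The members, the 40 lists and the rule for named genes were chosen with earlier results of these data known. The rule took the 25 highest nuclear genes, the mitochondrial genes of the top 50, 5 highest and all defining members of each list, and the 15 largest and 10 smallest CV at 10 FPKM or more without predicted models, and some genes that it took are not reported here. Families are symbol patterns. Positions, coding lengths and shared 31-base words are from GENCODE M21 (13005 of 13026 identifiers matched). Promoter windows are RefSeq's, for 9905 genes, and motif shares by class were not given, since fewer than 80% of genes had a window. The targeted gene Tnfsf14 was not analysed here.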

Additional observations from a re-analysis of the deposited data

How the results depend on the processing

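Of 222 values recomputed under another setting, 191 moved by less than the spread between libraries (counts: by less than 1.5 times) and 31 moved by more. Leaving out 1 of 3 replicates cannot move the mean share of a class by as much as this spread. Those values are among the 191 by construction, so the 191 is no measure of robustness. Without the mitochondrially encoded genes the 10, 100 and 1000 highest genes held 7.69, 21.4 and 55.7% of the sum, and the nephron, injury and immune shares were 6.32, 7.96 and 0.620%. Scaling each library to a total of 1000000 multiplied its values by 3.14, 3.20 and 3.24, and 9246, 1749 and 92 genes then reached 10, 100 and 1000 on that scale, which is not FPKM. Without the highest gene of the class, chosen after the data were seen, the nephron, injury and immune shares were 4.09, 5.32 and 0.444%. The median CV was 7.98% over genes at or above 10 FPKM, and 7.68 to 10.3% with 1 replicate left out, lowest without replicate 3. Of 152 recomputed list medians 11 moved with members under 1 FPKM left out and 4 without a replicate, while 137 did not. Depth is unknown, and genes under about 0.5 FPKM in both genotypes are not covered.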
